A study of Mus musculus with 54 samples.

Results

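The genes described here encode the beta subunits of the sodium-potassium pump, *Atp1b1*, *Atp1b2* and *Atp1b3*, in the mouse suprachiasmatic nucleus (SCN), the hypothalamic nucleus that holds the main circadian clock. They were taken by symbol, through their Ensembl identifiers, from a table of read counts, and are 3 of its 30031 genes. All 3 were among the 18941 genes that had enough reads to be tested. The rule used no measured value.

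The pump exports sodium and imports potassium at the cost of ATP, and so restores the ion gradients that firing runs down. It is built from a catalytic chain and a beta chain, a glycoprotein that folds and stabilises the catalytic chain and carries it to the cell surface. In the brain the beta 1 chain is found widely in neurons, the beta 2 chain, also known as the adhesion molecule on glia, is best known from astrocytes, and the beta 3 chain is found in many cell types at lower levels.

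Male C3H/HeH mice aged 10 to 12 weeks were kept under 12 hr of light and 12 hr of dark, and the SCN was cut out by laser-capture microdissection (LCM) at Zeitgeber times ZT2, ZT6 and ZT10, with the lights on, and ZT14, ZT18 and ZT22, with the lights off. Each of the 3 replicates per timepoint, A, B and C, was a pool of 5 animals, whose polyA RNA was amplified and sequenced on 3 lanes. The labels name no mutation and no drug, and the column names of all samples hold the letters WT. With all cells of the captured nucleus in 1 pool, fewer cells of a type and less RNA per cell cannot be told apart.

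Between 15412981 and 35820945 reads per replicate were counted on genes. The level of a gene is given as CPM, its counts scaled to the library total after TMM normalisation, and as mean ± SD with n = 3 replicates. The summed level of 8 SCN neuron markers lay between 1481 and 5155 CPM in single libraries, against at most 79.1 CPM for 5 markers of neighbouring hypothalamic neurons and at most 218 CPM for 5 markers of telencephalic excitatory neurons. No marker on any list was at 0 in every library of a timepoint. The principal component plot of the study, which is said to separate libraries by time and by batch of sequencing, shows 3 clusters of 6 libraries. One holds ZT6 and ZT10, another ZT14 and ZT18, and the last ZT22 and ZT2. A difference across clusters cannot be told apart from a batch that follows them.

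On GRCm38, *Atp1b1* (ENSMUSG00000026576) lies at chr1:164437109-164458355, *Atp1b2* (ENSMUSG00000041329) at chr11:69599736-69605942 and *Atp1b3* (ENSMUSG00000032412) at chr9:96332655-96364442, all on the minus strand. Their exons cover 3081, 4085 and 2389 bp. Of these exon bases in *Atp1b1*, 575 (18.7%) are also exon of *Nme7* on the other strand, so reads there are shared between both genes unless strand was used in counting, which is not given in the sources used here. *Nme7* itself had between 0 and 611 counts per library, at most 4.01% of the count of *Atp1b1* in the same library. This does not show how many *Atp1b1* reads the overlap gained or lost. No annotated gene overlaps *Atp1b2* or *Atp1b3*.

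RefSeq promoter windows on GRCm38.p6 were matched for 2 of the 3 genes. No window was found for *Atp1b2*, and all windows found for *Atp1b1* and *Atp1b3* are shown. Whether their letters bear on the time courses was not tested. Each run is the 250 bases before an annotated start site, 5′ to 3′ on the minus strand, and capitals mark matches on either strand to the letters GGGCGG (GC box), CCAAT and CACGTG (E-box, the element that the clock's activators bind). The first is the *Atp1b1* window at chr1:164458356-164458605 and the second the *Atp1b3* window at chr9:96364432-96364681. The third, at chr9:96363716-96363965, belongs to a second RefSeq start site of *Atp1b3*, which lies inside the bounds of the Ensembl gene.
Atp1b1: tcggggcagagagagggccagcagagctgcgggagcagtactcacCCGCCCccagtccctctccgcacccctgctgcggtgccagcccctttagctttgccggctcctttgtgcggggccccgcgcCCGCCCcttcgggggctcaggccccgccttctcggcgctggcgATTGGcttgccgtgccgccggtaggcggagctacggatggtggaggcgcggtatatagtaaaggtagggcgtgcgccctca
Atp1b3: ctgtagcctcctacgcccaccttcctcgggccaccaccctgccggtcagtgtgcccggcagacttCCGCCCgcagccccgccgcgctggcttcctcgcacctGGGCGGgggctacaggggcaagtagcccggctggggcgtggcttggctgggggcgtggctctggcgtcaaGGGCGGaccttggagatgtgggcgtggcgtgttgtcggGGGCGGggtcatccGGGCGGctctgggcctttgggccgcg
Atp1b3, second start: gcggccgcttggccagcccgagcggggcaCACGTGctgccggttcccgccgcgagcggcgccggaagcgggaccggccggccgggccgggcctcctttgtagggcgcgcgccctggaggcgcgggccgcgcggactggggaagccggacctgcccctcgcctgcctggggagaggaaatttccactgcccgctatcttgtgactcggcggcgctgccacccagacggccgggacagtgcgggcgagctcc

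The windows were rich in G and C, at 70.4% for *Atp1b1* and 73.6% and 76.8% for *Atp1b3*, against a median of 52.4% over all 32851 windows. They held 24, 24 and 35 CG dinucleotides, where the median window held 6. GGGCGG occurred at 2 places in the *Atp1b1* window and at 5 places in the first *Atp1b3* window, and in 32.7% of all windows. CCAAT occurred once, on the opposite strand 81 bases before the *Atp1b1* start, and in 33.8% of all windows. Of the letters bound by clock and CREB factors, CACGTG was found only in the window of the second *Atp1b3* start, 221 bases before it, and in 6.02% of all windows. CACGTT, the CRE letters TGACGTCA, the D-box letters TTATGTAA and TTATGCAA, and AGGTCA, the core of ROR elements, were in none of these 3 windows and in 3.85%, 1.55%, 0.819%, 0.694% and 14% of all windows. No motif contained another.

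*Atp1b1* had its highest levels in the middle and late day. Replicates A, B and C gave 567, 639 and 525 CPM at ZT2, 947, 1039.9 and 1014 CPM at ZT6, and 858, 887 and 995 CPM at ZT10. In the dark, ZT14 held 468, 459 and 479 CPM, ZT18 held 365, 377 and 472 CPM, and ZT22 held 583, 776 and 620.2 CPM. Each of the 6 libraries of ZT6 and ZT10 lay above each of the other 12. In order, the means were 1000.3 ± 48.0 CPM at ZT6, 913 ± 72.1 at ZT10, 659 ± 102 at ZT22, 577 ± 57.7 at ZT2, 469 ± 10.0 at ZT14 and 405 ± 58.8 at ZT18, so the highest was 2.47-fold the lowest. Within each cluster the neighbours in this order overlapped, ZT6 with ZT10, ZT22 with ZT2 and ZT14 with ZT18, and between clusters they did not.

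*Atp1b3* followed the same order. It gave 64.4, 69.3 and 57.3 CPM at ZT2, 99.0, 126 and 141 CPM at ZT6, and 105, 116 and 97.9 CPM at ZT10. In the dark, ZT14 held 42.5, 52.4 and 41.8 CPM, ZT18 held 52.9, 40.4 and 43.3 CPM, and ZT22 held 71.8, 61.7 and 58.1 CPM. The ZT6 and ZT10 libraries were again all above the other 12, which held for 4.78% of all tested genes and for 2 of these 3. The means were 122 ± 21.1 CPM at ZT6, 106 ± 9.30 at ZT10, 63.9 ± 7.08 at ZT22, 63.7 ± 6.03 at ZT2, 45.6 ± 5.93 at ZT14 and 45.5 ± 6.52 at ZT18, a 2.67-fold range. The same pairs of neighbours overlapped as for *Atp1b1*.

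*Atp1b2* differed from both, with its highest mean in the dark. It gave 361, 381 and 373 CPM at ZT2, 649.6, 565 and 256 CPM at ZT6, and 462, 391 and 505 CPM at ZT10. In the dark, ZT14 held 622, 509.7 and 493 CPM, ZT18 held 851, 582 and 619 CPM, and ZT22 held 374, 373 and 370.5 CPM. The replicates of ZT2 and ZT22 lay close together, whereas ZT6 held both the second highest and the lowest of the 18 libraries. The means ran from 684 ± 146 CPM at ZT18 through 542 ± 70.1 at ZT14, 490.4 ± 207 at ZT6 and 453 ± 57.6 at ZT10 to 372 ± 1.62 at ZT22 and 372 ± 9.77 at ZT2, a 1.84-fold range. All neighbours in this order overlapped except ZT10 and ZT22.

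Per kb of exon, which lets the genes be set side by side, ZT6 had 325 ± 15.6 CPM per kb for *Atp1b1*, 120.0 ± 50.7 for *Atp1b2* and 51.0 ± 8.84 for *Atp1b3*. At ZT18 the order of the first pair was the other way round, with 131 ± 19.1 CPM per kb for *Atp1b1*, 168 ± 35.7 for *Atp1b2* and 19.1 ± 2.73 for *Atp1b3*.

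**Figure D1:**
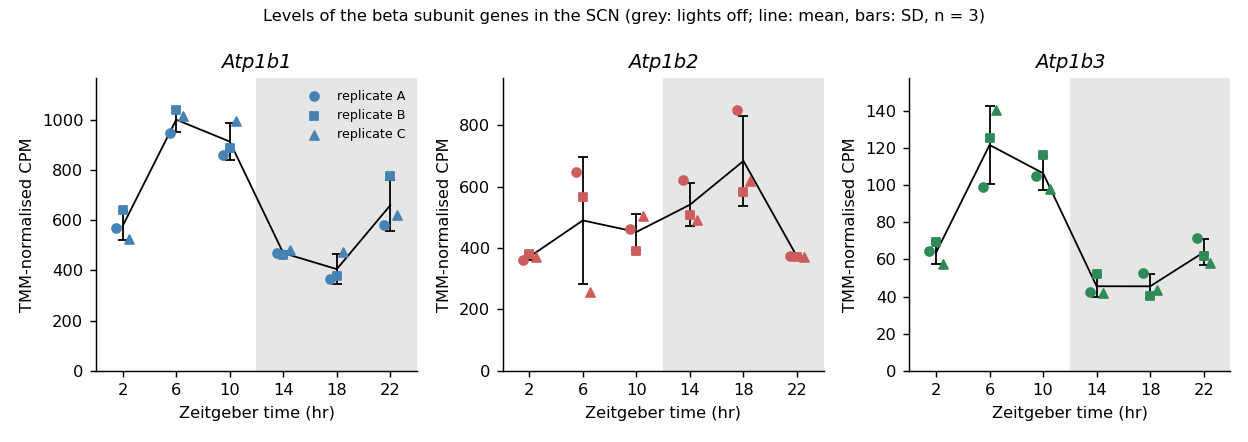
TMM-normalised CPM of the 3 genes (vertical axes, from 0) against Zeitgeber time in hr, with 1 point per replicate, the mean as a line, the SD as bars (n = 3) and the dark phase in grey. *Atp1b1* and *Atp1b3* are high at ZT6 and ZT10 and low at ZT14 and ZT18, and *Atp1b2* is highest on average at ZT18, with the ZT6 replicates spread from 256 to 649.6 CPM.

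Whether each gene changed over the cycle was tested with edgeR's quasi-likelihood F-test on all 6 timepoints in 1 fit, with Benjamini–Hochberg adjustment over all tested genes (q). *Atp1b1* (q = 6.01e-06), *Atp1b3* (q = 5.55e-06) and *Atp1b2* (q = 0.0369) all passed a threshold of 0.05, as did 44.0% of all tested genes. The call for *Atp1b2* was lost with DESeq2's size factors (q = 0.0518) and with upper-quartile scaling (q = 0.119). It was also lost when ZT2 A, B or C, ZT10 A, ZT14 A, ZT18 A or ZT22 A, B or C was left out, with q between 0.0521 (without ZT10 A) and 0.132 (without ZT18 A), while without ZT6 C q was 0.000587.

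A 24 hr rhythm was tested with JTK_CYCLE, a rank test against a cosine wave. Its exact p is given after multiplying by the 6 peak times tried, and is not adjusted over genes. *Atp1b1* (exact p = 0.000147) and *Atp1b3* (exact p = 0.00040) passed, both with the best-fitting peak at ZT6, and *Atp1b2* did not (exact p = 0.115, best-fitting peak ZT14). Without ZT6 A the exact p of *Atp1b2* was 0.0345. The time test (q under 0.05) and JTK_CYCLE (exact p under 0.05) were passed together by 29.9% of all tested genes and by 2 of these 3. A cosine wave fitted to log2 CPM had its peak at 6.36 hr for *Atp1b1*, with a peak 2.20-fold its trough, and at 6.41 hr for *Atp1b3*, with a peak 2.56-fold its trough.

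The light phase was compared with the dark phase in the same fit (9 against 9 libraries), as the mean of the light timepoints minus that of the dark ones. The SE and q of this contrast rest on the spread between replicates of a timepoint, not between the timepoints of a phase. For *Atp1b1*, the dark timepoint ZT22 (659 CPM) was above the light timepoint ZT2 (577 CPM). Over all tested genes the median light minus dark difference was -0.13 on the log2 scale, and the differences of these genes can be read against that. *Atp1b1* had 830.1 ± 201 CPM in the light and 511 ± 129 CPM in the dark (SD, n = 9), a log2 difference of 0.69 (SE 0.09, q = 2.53e-05). *Atp1b3* had 97.3 ± 28.7 CPM in the light and 51.7 ± 10.8 CPM in the dark, a log2 difference of 0.88 (SE 0.10, q = 1.14e-05). Genes higher in the light made up 9.56% of those tested, and 2 of these 3. *Atp1b2* did not pass, at a light minus dark difference of -0.25 (SE 0.14, q = 0.224) with 533 ± 158 CPM in the dark and 438 ± 119.8 CPM in the light. The difference was -0.14 without ZT6 C (q = 0.28), -0.14 on reads recovered from the other deposited table (q = 0.507) and -0.15 with upper-quartile scaling (q = 0.492). Genes higher in the dark made up 14.3% of those tested, and none of these 3.

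From ZT2 to ZT6, a step between clusters at which 33.8% of tested genes were called, *Atp1b1* rose by 0.79 (SE 0.15, q = 0.000493) and *Atp1b3* by 0.93 (SE 0.17, q = 0.000474) on the log2 scale. *Atp1b2* was not called there, at 0.40 (SE 0.25, q = 0.222), and it ran from 0.14 without ZT6 A (q = 0.686) to 0.71 without ZT6 C, where it was called (q = 0.00447). From ZT10 to ZT14, across lights off, *Atp1b1* fell by 0.96 (SE 0.15, q = 0.000313) and *Atp1b3* fell by 1.22 (SE 0.18, q = 0.000152), where 16.8% of genes were called in either direction and the median difference over all genes was 0.12. *Atp1b2* was not called, at 0.26 (SE 0.25, q = 0.529).

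From ZT18 to ZT22, before lights on, *Atp1b1* rose by 0.70 (SE 0.15, q = 0.00286) and *Atp1b2* fell by 0.88 (SE 0.25, q = 0.0186), and 18.1% of genes were called. *Atp1b3* was not called, at 0.49 (SE 0.17, q = 0.0614). The call of *Atp1b2* was lost without ZT18 A (log2 difference -0.69, q = 0.0873), without ZT22 B (-0.88, q = 0.062) and without ZT22 C (-0.88, q = 0.0642). *Atp1b3* passed with DESeq2 (0.55, q = 0.0156), with DESeq2's size factors in edgeR (0.55, q = 0.0405), with upper-quartile scaling (0.64, q = 0.0163), and without ZT2 C, ZT6 A, ZT6 C or ZT18 A.

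None of the 3 genes was called at the steps inside clusters. These were ZT6 to ZT10 (0.0475% of genes called), ZT14 to ZT18 (0.57%) and ZT22 to ZT2 (0.0317%), where log2 differences of these genes lay between -0.21 and 0.34 with standard errors of 0.15 to 0.25. ZT22 and ZT2 are the only light and dark timepoints inside 1 cluster, and there the light minus dark differences were -0.19 (SE 0.15) for *Atp1b1*, 0.00 (SE 0.25) for *Atp1b2* and 0.00 (SE 0.17) for *Atp1b3*.

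**Figure D2:**
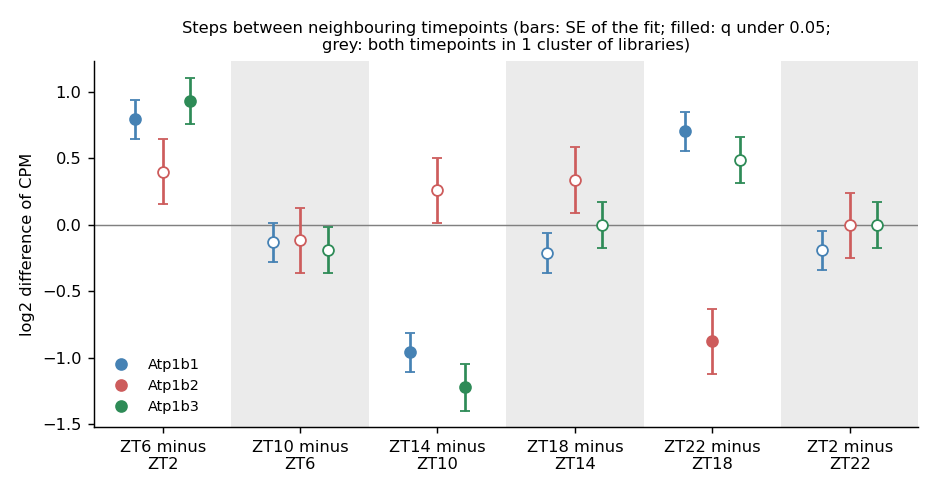
log2 difference of CPM between neighbouring timepoints (vertical axis) for the 6 steps of the cycle, with the standard error of the edgeR fit as bars, filled points where q was under 0.05, and grey bands where both timepoints lie in 1 cluster of libraries. All filled points lie outside the grey bands, and at ZT22 minus ZT18 *Atp1b1* (0.70) and *Atp1b2* (-0.88) are filled on opposite sides of 0.

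The 2 deposited tables did not hold the same reads at ZT6 and ZT10. The second table holds normalized values from which whole reads could be recovered. For ZT2, ZT14, ZT18 and ZT22 the recovered reads of the 3 genes equalled the counts to within 1 read. At ZT6 and ZT10 they were lower, with a log2 ratio of recovered to counted reads of -0.74 to -0.37 for *Atp1b1*, -0.13 to -0.05 for *Atp1b2* and -0.17 to -0.10 for *Atp1b3*. The mean over these 6 libraries was -0.48 for *Atp1b1*, against a median of -0.14 over 15749 genes, of which 16.5% were lower still. *Nme7* had 1022 counts and 485 recovered reads in these libraries and 4894 in both tables elsewhere.

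On the recovered reads, *Atp1b1* came to 758 ± 77.0 CPM at ZT6 and 773 ± 29.4 CPM at ZT10, and the lowest ZT6 library (673 CPM) lay under the highest ZT22 library (737 CPM), so the separation of the ZT6 and ZT10 libraries from all others was lost. The step of *Atp1b1* from ZT2 to ZT6 shrank from 0.79 to 0.47 (q = 0.0249) and its light minus dark difference from 0.69 to 0.53 (q = 0.000298), both still called. *Atp1b3* had 124 ± 19.3 CPM at ZT6 and 110.5 ± 11.3 CPM at ZT10, and a light minus dark difference of 0.96 (q = 2.29e-06). The time test of *Atp1b2* gave q = 0.0407.

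**Figure D3:**
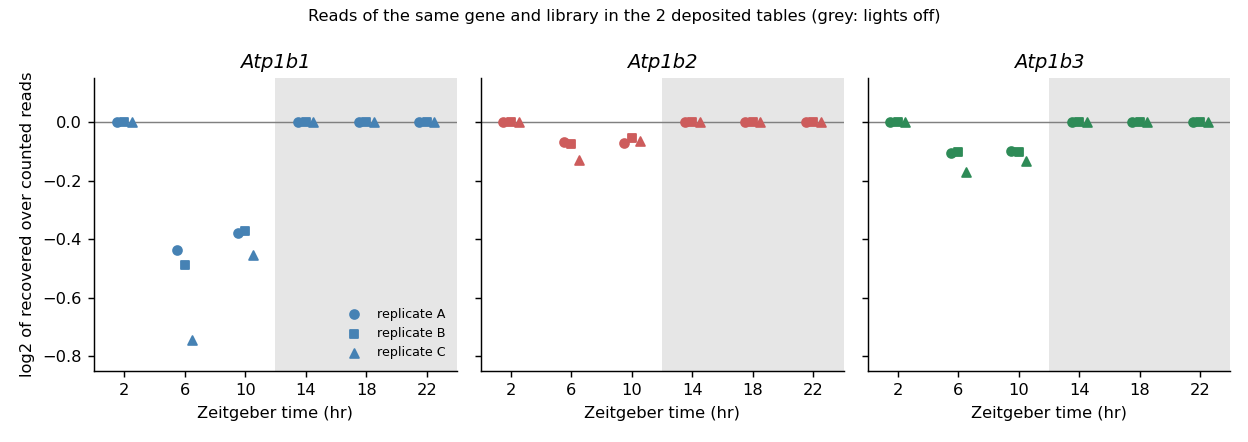
log2 of recovered over counted reads of the same gene in the same library (vertical axis) against Zeitgeber time in hr, with 1 point per replicate and the dark phase in grey. Points lie at 0 except at ZT6 and ZT10, where *Atp1b1* lies between -0.74 and -0.37 and the other genes lie at -0.17 or nearer to 0.

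The isoform mix was taken as each gene's share of the summed level of all 3, with CPM divided by exon length in kb so that genes could be compared. The mix at ZT14 and ZT18 stood apart from that at the other timepoints. At ZT2 the *Atp1b1* share was 61.5, 62.9 and 59.7% in replicates A, B and C, at ZT6 60.5, 63.9 and 73.0%, and at ZT10 63.9, 66.6 and 66.2%. At ZT14 it was 47.2, 50.4 and 53.0%, at ZT18 34.0, 43.4 and 47.5%, and at ZT22 60.9, 68.3 and 63.6%. All 6 libraries of ZT14 and ZT18 lay below all others, and ZT22, although dark, lay among the light timepoints.

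The shares of a library add up to the whole and the *Atp1b3* share was small, so the *Atp1b2* share largely mirrored that of *Atp1b1*. The *Atp1b2* share was 29.5, 28.3 and 31.9% at ZT2, 31.3, 26.2 and 13.9% at ZT6, and 26.0, 22.1 and 25.4% at ZT10. It was 47.3, 42.2 and 41.1% at ZT14, 59.7, 50.6 and 46.9% at ZT18, and 29.4, 24.7 and 28.7% at ZT22. The *Atp1b3* share stayed small, between 8.16 and 13.1% at ZT2, ZT6 and ZT10, 5.53 and 7.41% at ZT14 and ZT18, and 7.00 and 9.67% at ZT22. Per kb of exon, *Atp1b1* was above *Atp1b2* in all 12 libraries outside ZT14 and ZT18, and below it in ZT14 A, ZT18 A and ZT18 B.

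Light and dark, with 9 libraries each, were compared by an exact two-sided permutation test, with Benjamini–Hochberg adjustment over 3 shares and 3 ratios (q). The *Atp1b1* share was 64.2 ± 4.05% in the light and 52.0 ± 10.8% in the dark (SD, n = 9, exact permutation q = 0.00642). The *Atp1b2* share was 26.1 ± 5.51% and 41.2 ± 11.6% (exact permutation q = 0.00568), and the *Atp1b3* share 9.68 ± 1.62% and 6.80 ± 1.33% (exact permutation q = 0.00346). The log2 ratio of *Atp1b1* to *Atp1b2*, which needs no scaling between libraries, was 1.33 ± 0.45 in the light and 0.36 ± 0.73 in the dark (exact permutation q = 0.00568). That of *Atp1b2* to *Atp1b3* was 1.41 ± 0.58 and 2.57 ± 0.63 (exact permutation q = 0.00346). The test treats the 9 libraries of a phase as exchangeable, although they belong to 3 timepoints and to the clusters. The shares and ratios come from the same 3 levels, so their tests are not independent of each other. The level of *Atp1b2* itself was not called between light and dark (edgeR q = 0.224). The mean *Atp1b1* share at ZT22 (64.3%) was above that at ZT2 (61.3%), and of the dark timepoints ZT14 (50.2%) and ZT18 (41.6%) alone lay below the light mean.

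The ratio of *Atp1b1* to *Atp1b3* varied least, between 2.42 and 3.29 on the log2 scale over all libraries, with 2.74 ± 0.16 in the light and 2.93 ± 0.28 in the dark (exact permutation q = 0.101). On the recovered reads its light minus dark difference was -0.42 in place of -0.18 (exact permutation q = 0.0152), and without ZT18 A it was -0.25 (exact permutation q = 0.017). The other 5 measures stayed past the threshold with recovered reads, with a share difference of 8.08 in place of 12.2 percentage points for *Atp1b1*.

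Inside the clusters, where the smallest exact permutation p is 0.1, none of the 18 comparisons of a share or ratio reached it. The *Atp1b1* share differed by -2.92 percentage points from ZT22 to ZT2 (exact permutation p = 0.3) and by -8.57 from ZT14 to ZT18 (exact permutation p = 0.2), and the *Atp1b2* share by 2.30 (exact permutation p = 0.4) and 8.88 (exact permutation p = 0.2). Without ZT18 A the differences from ZT14 to ZT18 were -4.75 and 5.24 percentage points. Those from ZT22 to ZT2 were -0.92 and 0.86 without ZT22 B, -4.61 for *Atp1b1* without ZT22 A and 1.29 for *Atp1b2* without ZT2 C.

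**Figure D4:**
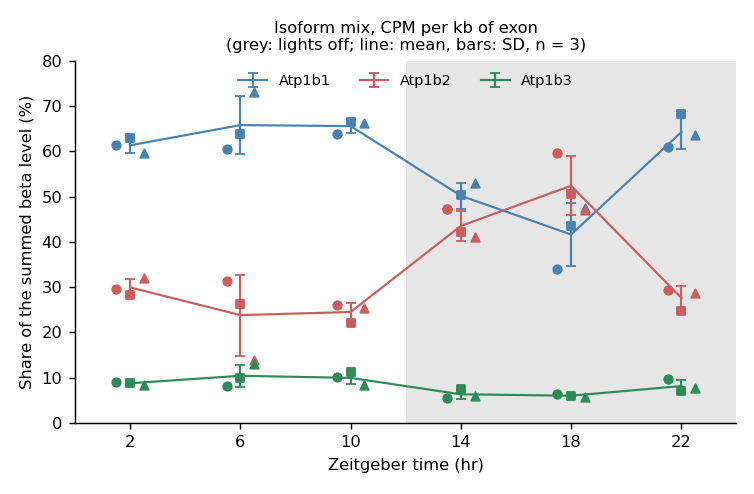
Share of each gene in the summed level of the 3 genes, in percent of CPM per kb of exon (vertical axis), against Zeitgeber time in hr, with 1 point per replicate, the mean as a line, the SD as bars (n = 3) and the dark phase in grey. The mean *Atp1b2* share is 24.5% at ZT10 and 52.4% at ZT18, where it is above the mean *Atp1b1* share of 41.6%, and at ZT22 it is 27.6%.

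Marker levels also differed between timepoints, some in the cluster order of these genes and some not, and their part in the results was not tested. The counts of markers called can be read against all tested genes, of which 9.56% were higher in the light and 14.3% in the dark. The summed level of the 8 SCN neuron markers, 6 of which were higher in the light, was 4181 to 5155 CPM at ZT6 and ZT10, 1944 to 3280 at ZT22 and ZT2, and 1481 to 2427 at ZT14 and ZT18. The cluster means were in the same order as for *Atp1b1* and *Atp1b3*, though the lower ranges overlapped. Inside clusters the order differed, with ZT2 (2727 CPM) above ZT22 (2346 CPM) and ZT18 (2234 CPM) above ZT14 (1869 CPM). Several of these markers encode clock-driven peptides. The 8 general neuron markers, of which 4 were higher in the dark and none in the light, summed to 3162 to 4377 CPM at ZT6 and ZT10, 3894 to 6795 at ZT14 and ZT18, and 6283 to 8345 at ZT22 and ZT2.

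The 9 oligodendrocyte markers, 6 of them higher in the dark, summed to 4873 to 6214 CPM at ZT14 and ZT18, the timepoints where the *Atp1b2* share was highest, and to 1386 to 4486 CPM elsewhere. The 9 astrocyte markers, 3 of them higher in the dark and 2 in the light, summed to 1618 to 2936 CPM at ZT6 and ZT10, 2724 to 4262 at ZT14 and ZT18, and 4429 to 5209 at ZT22 and ZT2, where *Atp1b2* was lowest. ZT6 C, the library lowest in *Atp1b2*, was also the lowest of the 18 in the neuron (3162 CPM), astrocyte (1618 CPM), oligodendrocyte (1386 CPM), microglia (115 CPM) and endothelial (127 CPM) sums but not in the SCN neuron sum (4862 CPM), and ZT18 A, the highest in *Atp1b2*, was the highest in the oligodendrocyte sum (6214 CPM). The 8 microglia markers summed to 115 to 282 CPM and the 7 endothelial markers to 127 to 308 CPM.

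Of 12 other genes tied to the pump, the FXYD regulators, the NKAIN proteins and the beta relative *Atp1b4*, 11 could be tested and 4 changed with time, with 1 higher in the light, none in the dark, and a median light minus dark difference of 0.17. Over all tested genes these shares were 44.0%, 9.56% and 14.3%, and the median was -0.13. *Fxyd1*, which encodes phospholemman, a small regulator of the pump, was higher in the light by 0.41 (SE 0.11, q = 0.0123), with 141 ± 8.87 CPM at ZT10 and 81.9 ± 15.0 at ZT14. At ZT22, in the dark, *Fxyd1* had 124 ± 15.6 CPM, near its means at ZT2 (130 ± 17.2 CPM) and ZT6 (126 ± 31.9 CPM). *Fxyd5* changed with time (q = 0.00298) and was highest around lights on, at 25.9 ± 2.79 CPM at ZT22 and 23.0 ± 8.94 at ZT2, against 7.71 ± 1.30 at ZT14. *Fxyd6* (q = 0.0365) had 530.2 ± 42.6 CPM at ZT2 and 345 ± 38.3 at ZT14.

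*Fxyd7* (q = 0.0352), a brain FXYD protein, ran from 10.6 ± 12.5 CPM at ZT2 to 72.2 ± 17.9 at ZT10. *Nkain4*, of a family named for its interaction with the pump, was not called (q = 0.636) and had means between 92.0 and 125 CPM. On the recovered reads 1 of these genes changed with time in place of 4, and 1 did so without ZT14 A.

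Of 12 other ion pumps of the same P-type class, 10 were tested and 5 changed with time, 2 being higher in the dark and none in the light, with a median light minus dark difference of -0.32, where 44.0% of all tested genes changed with time, 14.3% were higher in the dark and 9.56% in the light. *Atp2b2*, a plasma membrane calcium pump, was higher in the dark (light minus dark -0.77, SE 0.12, q = 0.000163) with 426 ± 71.5 CPM at ZT14 against 127 ± 31.7 at ZT6. Its ZT18 mean (182 ± 3.42 CPM) was near that of ZT2 (176 ± 20.9 CPM). *Atp2b1*, of the same family, was also higher in the dark (-0.41, SE 0.13, q = 0.032), where ZT14 had 420 ± 86.3 CPM, ZT18 had 134 ± 2.33 CPM and ZT22 had 394 ± 147 CPM. *Atp2b4* (time q = 0.000122) had 58.0 ± 7.40 CPM at ZT14 and 24.8 ± 2.69 at ZT18.

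*Atp2b1*, *Atp2b2* and *Atp2b4* were lower at ZT18 than at ZT14 (q = 0.0242 for each), a step inside a cluster at which none of the beta subunit genes was called. No gene was called at that step by edgeR without ZT14 A, ZT18 B or ZT18 C (1899, 2642 and 2112 genes at an unadjusted p under 0.05), 1 was without ZT14 B and 2 were without ZT14 C, so these 3 calls did not all hold without any one of those 5 libraries. *Atp2a2*, the calcium pump of the endoplasmic reticulum, changed with time (q = 0.00655) between 240.4 ± 12.0 CPM at ZT10 and 389 ± 46.8 at ZT22. *Atp2c1*, a Golgi pump for calcium and manganese, was not called (q = 0.0821).

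Of 15 transporters that run on the sodium gradient, all were tested and 11 changed with time, 2 being higher in the light and 5 in the dark, with a median light minus dark difference of -0.03. The shares of all tested genes were 44.0%, 9.56% and 14.3%, with a median of -0.13. *Slc24a3*, a potassium-dependent sodium-calcium exchanger, had its highest mean at ZT6, like *Atp1b1* and *Atp1b3* (100.5 ± 4.76 CPM against 36.9 ± 5.61 at ZT2) but missed the light and dark test (q = 0.0789).

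Among genes called higher in the dark, *Slc1a2*, a glutamate transporter of astrocytes, had 409 ± 32.2 CPM at ZT10 and 1136 ± 325 at ZT22 (light minus dark -0.48, SE 0.12, q = 0.00855). At ZT2, in the light, *Slc1a2* had 1031 ± 243 CPM, above its means at ZT14 (857 CPM) and ZT18 (622 CPM). *Slc1a3*, the other main astrocyte glutamate transporter, changed with time (q = 6.10e-06) from 738 ± 46.3 CPM at ZT10 to 2185 ± 306 at ZT2 but missed the light and dark test (q = 0.0676). *Slc6a11*, a GABA transporter, was not called (time q = 0.0941), and *Slc4a4*, a sodium bicarbonate cotransporter, changed with time (q = 0.0192) between 137 and 219 CPM.

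**Figure D5:**
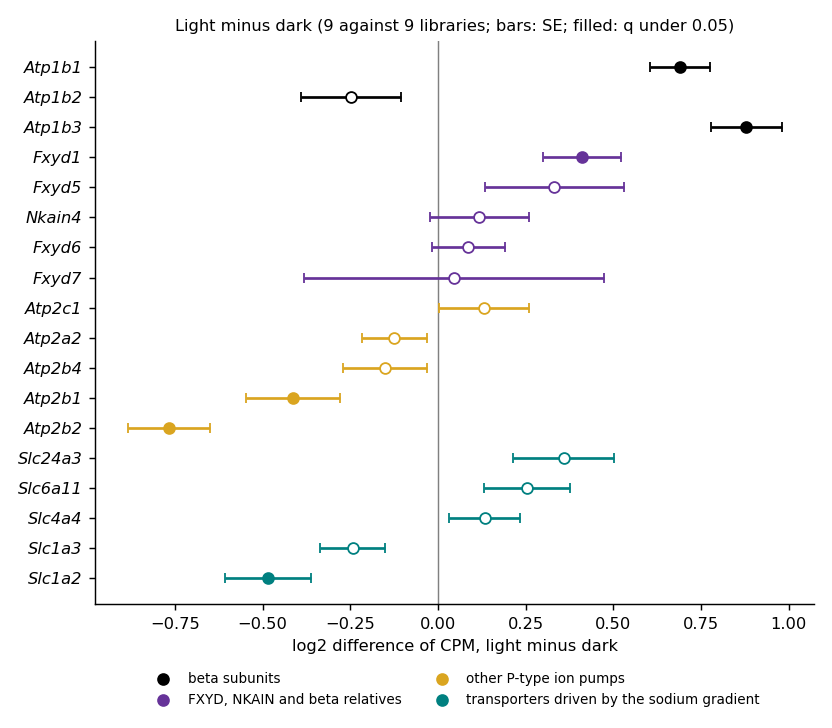
log2 difference of CPM, light minus dark (horizontal axis), for the beta subunit genes and genes named above from the 3 lists, with the standard error of the edgeR fit as bars and filled points where q was under 0.05 (9 against 9 libraries). *Atp1b3* (0.88) and *Atp1b1* (0.69) lie farthest to the right of the genes shown, and *Atp2b2* (-0.77) farthest to the left.

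The genes most like each member over the 18 libraries were sought among 9611 genes with a mean of at least 10 CPM, by Pearson's r of log2 CPM, as a description. For *Atp1b1* they were *Son* (r = 0.955), *Tomm20* (0.945) and *Ywhab* (0.942), which encode a splicing cofactor, a mitochondrial import receptor and a 14-3-3 protein. For *Atp1b3* they were *Ost4* (0.983), a subunit of oligosaccharyltransferase, *Tusc2* (0.969) and *Rpl36al* (0.964), a ribosomal protein. For *Atp1b2* they were *Leprotl1* (0.867), *Prr5* (0.861) and *Ssr1* (0.848), a subunit of the translocon-associated complex.

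Libraries of 1 cluster share their timepoints, so r was also taken inside clusters. Inside the clusters of 6 libraries, r was 0.34 to 0.81 for *Son*, 0.67 to 0.90 for *Ost4* and 0.64 to 0.94 for *Prr5*. For *Tusc2* it ran from -0.23 to 0.88, and for *Ywhab* from 0.0056 (ZT14 and ZT18) to 0.79 (ZT22 and ZT2). *Atp1b1* and *Atp1b3* had r = 0.915 over all libraries, but 0.07, 0.41 and -0.26 inside the clusters. *Atp1b2* had r = -0.40 with *Atp1b1* and -0.37 with *Atp1b3* over all libraries, and inside clusters these ran from -0.66 to 0.27 and from -0.72 to 0.40.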

How the data were processed

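RNA from 18 replicates (54 lane samples) was sequenced. After quality trimming, the authors mapped reads to mm10 (GRCm38) with GSNAP and counted reads on genes with HTSeq 0.5.4p1. The deposited count table holds whole reads per gene with the lanes of a replicate combined and no normalization. The other table the authors deposited holds 31077 genes as normalized signal, counts divided by a size factor per column (DESeq2, per their methods). In each of its columns 100% of values above 0 lay within 0.1 of a whole multiple of 1 step, which gave the recovered reads. No column was left unused (0 columns).

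Symbols and exon lengths come from GENCODE M21 on GRCm38, which named 97.2% of identifiers. Genes were kept when over 6 replicates had 1 read or more, and were fitted with edgeR 4.0.16 (TMM, quasi-likelihood tests, 1 coefficient per timepoint, all 18 replicates) in R 4.3.3, and tested on simulated data first. DESeq2 1.42.0 and limma 3.58.1 (cosinor) served as alternatives. JTK_CYCLE was rewritten in Python 3.11.15 (numpy 2.4.6, scipy 1.17.1, pandas 2.3.3) with its exact null distribution, 6 lags and a 24 hr period. For the likeness of genes, a prior count of 2 was added before taking log2 CPM. Shares used CPM per kb of exon.

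The genes and lists were chosen with earlier results of these data known. From each list, the 3 genes with the smallest time-test p and those with a mean of at least 50 CPM are named, with the 3 most alike genes per member. *Nme7* was named after its overlap was seen. GC and CCAAT boxes were searched after the windows were seen. Genes of the catalytic chains and some other listed genes are not reported here. The alternatives were other normalizations and filters, the recovered reads, a replicate block, other gene lengths and leaving out each replicate. Animals were pooled, so SDs are those between pools.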

Additional observations from a re-analysis of the deposited data

Results flagged for a closer look

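Among the 9 libraries of the light phase, the log2 ratio of *Atp1b1* to *Atp1b2* per kb of exon was 2.39 in ZT6 replicate C, and the nearest other library had 1.59. This gap was 0.538 of the whole range, above the 95% critical value of Dixon's test for 9 samples. Chance marks about 1 in 20 such groups. Without that library the light minus dark difference of this log2 ratio was 0.84 in place of 0.97 (exact permutation q = 0.0117).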

How the results depend on the processing

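The light minus dark differences of *Atp1b1* and *Atp1b3*, their time tests and JTK_CYCLE calls, and their called steps kept their direction and their side of the threshold under every alternative run, the light minus dark difference lying between 0.53 and 0.79 for *Atp1b1* and between 0.84 and 0.98 for *Atp1b3*. The time test of *Atp1b2* gave q = 0.0518 with DESeq2's size factors and 0.119 with upper-quartile normalization, and between 0.000587 and 0.132 when single replicates were left out. Its step from ZT18 to ZT22 ranged from -0.98 to -0.69 without single replicates, and its JTK_CYCLE exact p from 0.0345 to 0.292. The log2 ratio of *Atp1b1* to *Atp1b3* differed between light and dark by -0.42 on the recovered reads and by -0.25 to -0.14 without single replicates. The causes were not tested.

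The labels do not say whether a replicate letter marks samples handled together, and the main fit paired none. Deviations of the same letter correlated between -0.46 and 0.19 (9 of 45 pairs over 0.1). Those of different letters correlated between -0.50 and 0.52 (16 of 90). These correlations cannot show whether a letter marks a shared batch. With the letter as a replicate block, the light minus dark differences were 0.69, -0.25 and 0.88 for *Atp1b1*, *Atp1b2* and *Atp1b3*, and no call of these genes changed.

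Differences near 0 and never called changed sign. ZT2 minus ZT22 of *Atp1b2* (main value -0.0026) was 0.026 with DESeq2 and with its size factors, 0.0044 with at least 10 counts per replicate, 0.011 with no filter and 0.018 with upper-quartile normalization, and that of *Atp1b3* (-0.0040) was 0.026, 0.026, 0.0025, 0.011 and 0.019. ZT18 minus ZT14 of *Atp1b3* (-0.00041) was 0.032 with DESeq2 and with its size factors, 0.014 with the stricter filter, 0.048 with none, 0.0039 with the block and 0.040 with upper-quartile normalization. ZT10 minus ZT6 of *Atp1b1* was 0.029 on the recovered reads. Without single replicates, ZT2 minus ZT22 lay between -0.020 and 0.027 for *Atp1b2* and between -0.068 and 0.097 for *Atp1b3*, ZT18 minus ZT14 of *Atp1b3* between -0.12 and 0.11, and ZT10 minus ZT6 of *Atp1b2* between -0.42 and 0.14.

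The counts of all genes called moved more than 1.5 times at 5 of the 6 steps, all but ZT6 minus ZT2 (5217 to 7219, main count 6402). Over all alternatives they lay between 2 and 252 for ZT10 minus ZT6 (main count 9), 0 and 844 for ZT18 minus ZT14 (108), 1 and 34 for ZT2 minus ZT22 (6), 1993 and 4190 for ZT14 minus ZT10 (3189) and 2097 and 4667 for ZT22 minus ZT18 (3435), the highest of each with DESeq2. The lowest count behind any value of these genes was 710 reads (*Atp1b3*, ZT18 C).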
